A study of Mus musculus with 2 samples.

Results

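The light chain constant genes Igkc, Iglc1, Iglc2 and Iglc3 and the J chain gene Jchain were followed in single cells of mouse perigonadal white adipose tissue (gWAT). They are 5 of the 32285 genes in the count tables, all were found by symbol, and all 5 had UMIs (unique molecular identifiers, 1 per captured RNA molecule) in both libraries. The cells came from male Cyp1a1 fate reporter mice (Cyp1a1Cre x R26LSL-eYFP), in which Cre made from the Cyp1a1 gene, a target of the aryl hydrocarbon receptor (AHR), permanently switches on eYFP, so that the label marks present or past Cyp1a1 activity. Feeding lasted 12 weeks, with 10% fat in the low-fat (LFD) and 60% fat in the high-fat (HFD) group, and FICZ, an AHR ligand, was given to both groups, controls included, at 10 mg/kg with 5 days left until tissue was taken. Live eYFP+ cells of the stromovascular fraction, pooled from a pair of mice per diet, were sorted into 1 library per diet. There was therefore no replicate of either diet and no test was possible. Diet and library cannot be told apart, and no information ties a cell to a mouse. Intervals are exact 95% intervals that cover counting error only.

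Every antibody pairs heavy chains with light chains, and each light chain ends in a constant region encoded by the kappa locus (Igkc) or by a lambda locus gene (Iglc1, Iglc2, Iglc3). A developing B cell usually rearranges kappa before lambda and, as a rule, goes on to express a single light chain, most often kappa in mice. J chain is the small polypeptide that joins IgM and IgA into polymers and lets the polymeric immunoglobulin receptor bind them, and its gene is strongly transcribed in antibody-secreting plasma cells. Serosal fat is a known site of B-1 cells, innate-like B lymphocytes that secrete natural IgM.

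In GENCODE M21 (assembly GRCm38), Igkc is a single-exon constant gene at chr6:70726435-70726966 on the plus strand. The lambda constant genes lie on the minus strand of chromosome 16, Iglc1 at chr16:19061618-19062071, Iglc3 at chr16:19065230-19065681 and Iglc2 at chr16:19198396-19200351. Iglc1 and Iglc3 are 3158 bases apart, and Iglc3 and Iglc2 are 132714 bases apart. Jchain is at chr5:88519809-88527891 on the minus strand, with 4 exons. The lambda transcripts had 454 (Iglc1), 458 (Iglc2) and 452 (Iglc3) bases, of which 317, 315 and 314 were coding, and 3′ reads can also fall after the coding end. The last 120 coding bases are shown as an example of how these genes differ (Iglc1 from chr16:19061755-19061874, Iglc2 from chr16:19198539-19198658, Iglc3 from chr16:19065368-19065487, all minus strand). Capitals mark the 39 positions that the genes do not all share.
Iglc1: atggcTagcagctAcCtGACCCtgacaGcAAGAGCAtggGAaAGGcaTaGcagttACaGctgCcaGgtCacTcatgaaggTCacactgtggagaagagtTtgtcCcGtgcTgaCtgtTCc
Iglc2: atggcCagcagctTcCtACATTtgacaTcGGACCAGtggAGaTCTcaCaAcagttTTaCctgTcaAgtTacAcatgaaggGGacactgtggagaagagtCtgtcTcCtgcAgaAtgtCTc
Iglc3: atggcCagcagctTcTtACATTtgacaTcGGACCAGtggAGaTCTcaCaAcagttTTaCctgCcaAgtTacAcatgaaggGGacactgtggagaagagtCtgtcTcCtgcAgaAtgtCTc
At 37 of these positions Iglc1 alone had its base, whereas Iglc2 and Iglc3 each differed from both other genes at 1 position. Over the whole coding part, Iglc2 and Iglc3 were 96.2% identical, with an identical run of 79 bases, and 43 of 409 windows of 50 bases in the Iglc2 transcript also occurred in Iglc3. Iglc1 was 73.8% identical to Iglc2 and 74.9% identical to Iglc3, and shared no such window with either. The longest run that Igkc shared with any of them was 8 bases. Reads from the shared windows cannot tell Iglc2 from Iglc3. How many reads fell there was not tested, so the split of UMIs between these genes is uncertain. Igkc, Iglc1 and the Iglc2-Iglc3 pair are well separated.

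After the filters (500 to 40000 UMIs and under 12.5% mitochondrial UMIs) 10218 LFD and 8545 HFD cells remained, with median depths of 10634 and 13224 UMIs. The 5 genes took 1.27% of the LFD and 5.40% of the HFD UMIs. Cells were classed by how many genes of fixed marker lists they held, which did not include the light chains or Jchain. Plasma cell-like cells, with at least 8 of 12 markers, numbered 339 (3.32%) in LFD and 1323 (15.5%) in HFD. B-like cells, with at least 4 of 10 markers, numbered 1123 (11%) and 804 (9.41%). In plasma cell-like cells Mzb1, a chaperone of IgM assembly, was detected in 100% of cells of both libraries, the surface proteoglycan gene Sdc1 in 74.3% and 80.2%, and the plasma cell regulator gene Prdm1 in 45.4% and 50.3%. The plasma cell receptor gene Tnfrsf17 had a UMI in 49.6% and 63.6% of plasma cell-like and in 0.0890% and 0.498% of the shallower B-like cells. Other markers were shared: Cd79a, part of the B cell receptor, was found in 99.8% and 99.6% of B-like and in 87.3% and 87.2% of plasma cell-like cells, and Mzb1 in 63.4% and 57.6% of B-like cells. The classes are ranges and not separate types: 159 LFD and 587 HFD plasma cell-like cells also reached the B-like minimum, and 58 and 87 cells were 1 marker short of the plasma cell-like minimum. Of the cell barcodes that passed, 22 were in both libraries, and only 1 of these was plasma cell-like or B-like in both.

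Kappa RNA dominated in plasma cell-like cells of both libraries, whereas each lambda gene was low in the median cell and reached over 1000 UMIs in single cells. A median LFD plasma cell-like cell held 2553 Igkc UMIs, 8 of Iglc1, 9 of Iglc2, 4 of Iglc3 and 112 of Jchain. In HFD the medians were 3036, 18, 8, 3 and 213 UMIs. Between cells, Igkc ran from 0 to 10817 UMIs in LFD and from 1 to 11312 in HFD, and Iglc1 from 0 to 3521 and from 0 to 3607. Jchain was at 0 in 3 LFD cells and in no HFD cell, and its highest values were 548 and 1387 UMIs. Summed over cells, Igkc was at 195734 counts per 1000000 UMIs (CPM) in LFD, against 215318 CPM in HFD, and Jchain at 10455 and 16080 CPM. Light chain constant RNA as a whole made up 20.8% of the UMIs of LFD and 24.5% of those of HFD plasma cell-like cells, against 1.14% and 1.05% in B-like cells. A plasma cell-like cell thus carried far more light chain RNA than a B-like cell, in which the median Igkc count was 27 UMIs in LFD and 23.5 in HFD and the median Jchain count was 0.

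**Figure D1:**
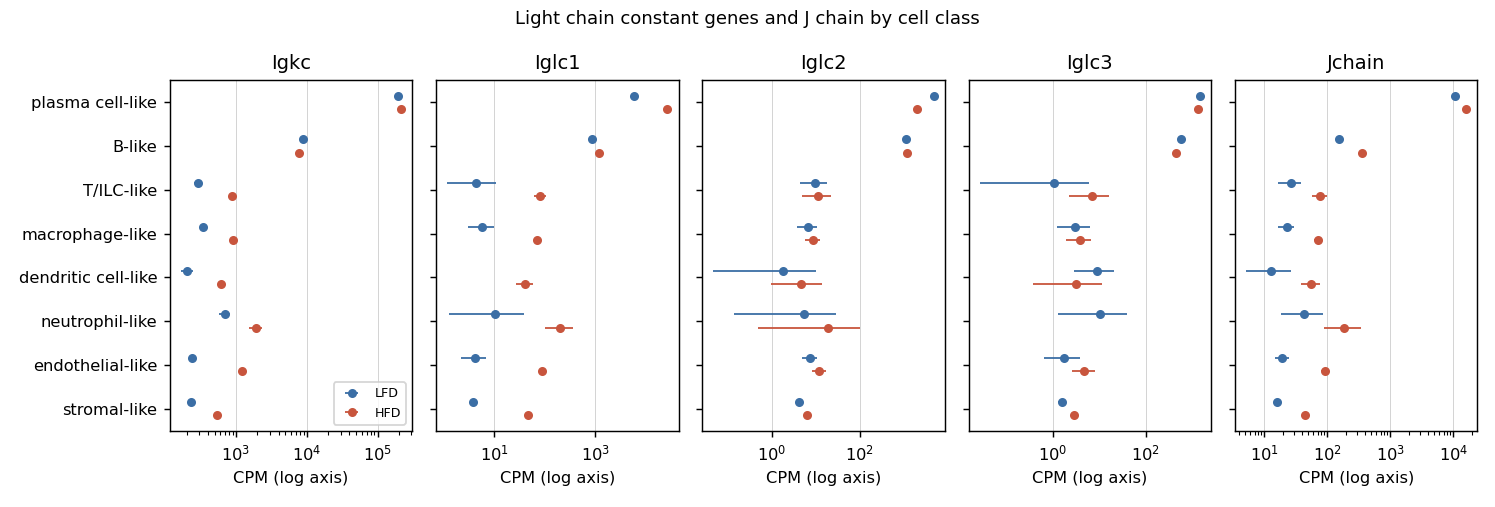
Summed level of each gene in CPM (log axis) in 8 cell classes, LFD blue and HFD red, with exact 95% Poisson intervals that cover counting error only; a class with no UMI of a gene has no point. Plasma cell-like cells held the highest level of all 5 genes in both libraries, Jchain at 10455 CPM in LFD and 16080 in HFD, and the classes below B-like cells show the level of RNA outside its source cells.

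Cell types that do not make antibody showed how much of this RNA was counted outside its source cells. In stromal-like cells, the largest class with 6289 LFD and 4205 HFD cells, Igkc was at 229 CPM in LFD and 544 in HFD, and Jchain at 15.7 and 44.7 CPM. Iglc1 was at 3.79 and 46.4 CPM, Iglc2 at 4.05 and 6.43, and Iglc3 at 1.60 and 2.95. All 5 genes were thus higher in the stromal-like cells of the library with more plasma cell-like cells. Macrophage-like cells had a like level, with Igkc at 344 and 916 CPM and Jchain at 22.5 and 70.5 CPM, as did T and innate lymphoid (T/ILC)-like cells, with Igkc at 291 and 870 CPM and Jchain at 26.1 and 75.1 CPM. In LFD dendritic cell-like cells no Iglc1 UMI was found, which allows up to 5.45 CPM by a limit of 3 counts.

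In HFD the lambda composition of this background was closer to plasma cell-like than to B-like cells, while in LFD it lay between them or below both, and the ratio of Igkc to Jchain was closer to plasma cell-like cells in both libraries. Iglc1 made up 47.5% of the lambda UMIs of LFD plasma cell-like cells and 88.8% in HFD. In stromal-like cells these shares were 40.2% and 83.2%, in macrophage-like cells 37.1% and 84.9%, and in B-like cells 33.0% and 41.3%. The number of Igkc UMIs per Jchain UMI was 18.7 in LFD and 13.4 in HFD plasma cell-like cells, 14.5 and 12.2 in stromal-like cells, and 57.4 and 21.9 in B-like cells. At the stromal level, a plasma cell-like cell of median depth would hold 2.80 background UMIs of Igkc in LFD and 7.44 in HFD, 0.0463 and 0.635 of Iglc1, and 0.192 and 0.611 of Jchain. A B-like cell of median depth would hold 0.931 and 2.29 UMIs of Igkc, beside medians of 27 and 23.5, and 0.0641 and 0.188 of Jchain, beside medians of 0. Igkc was 38.3-fold and 14.1-fold higher in B-like than in stromal-like cells, and Jchain 9.68-fold and 7.86-fold. Stromal-like cells were deeper than B-like cells and had the lowest HFD levels of Igkc and Jchain of the classes named here. In endothelial-like cells, nearer in depth, Igkc was at 237 (LFD) and 1221 (HFD) CPM and Jchain at 19.4 and 91.8 CPM, beside B-like levels of 8755 and 7684 CPM of Igkc and 152 and 351 CPM of Jchain.

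**Figure D2:**
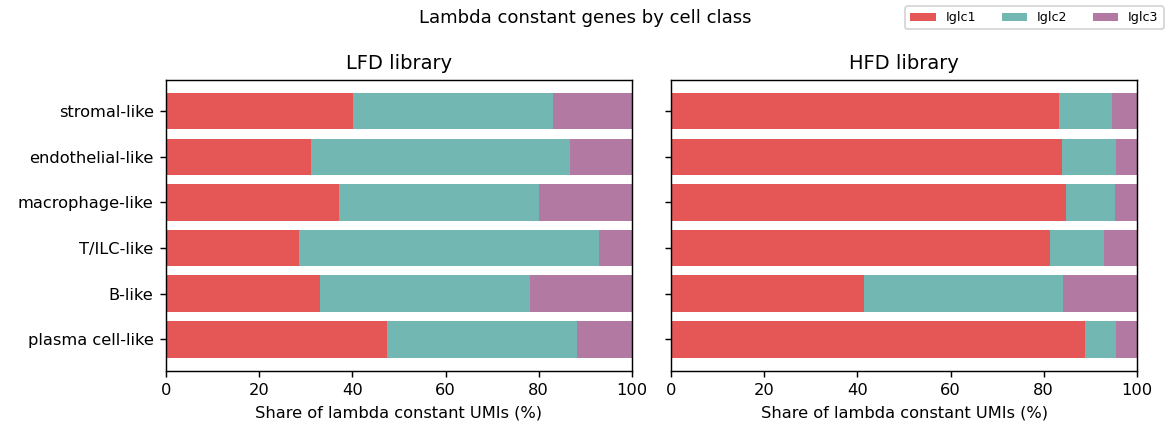
Share of Iglc1, Iglc2 and Iglc3 in the lambda constant UMIs (percent) of 6 cell classes in the LFD (left) and HFD (right) library. In HFD all classes but B-like cells had over 80% Iglc1, with 88.8% in plasma cell-like and 83.2% in stromal-like cells, against 41.3% in B-like cells.

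Each plasma cell-like cell was then called by the lambda share of its light chain UMIs, kappa at up to 20%, lambda from 80% and both in between, among cells with at least 20 light chain UMIs, which all of them had. Most cells were kappa in both libraries, lambda cells were few, and cells called both had a larger share in the HFD library. The call counts RNA of constant genes only, and whether both light chains were rearranged or made as protein was not tested. In LFD 317 of 339 cells were kappa (93.5%), 15 lambda (4.42%, interval 2.50% to 7.19%) and 7 both (2.06%, interval 0.834% to 4.21%). In HFD 998 of 1323 were kappa (75.4%), 38 lambda (2.87%, interval 2.04% to 3.92%) and 287 both (21.7%, interval 19.5% to 24%). The intervals for lambda cells overlapped between libraries and those for cells with both did not. Subtracting the stromal background from every cell left all these shares as they were. The distribution was continuous between 10% and 50% lambda in HFD, with 108 cells from 10% to 20%, 121 from 20% to 30% and 155 from 30% to 50%, and only 11 from 50% to 80%. With limits of 10% and 90% the share with both became 4.13% in LFD and 30.0% in HFD, and among HFD cells of at most 10000 UMIs outside the immunoglobulin genes and Jchain it was 17.0%.

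**Figure D3:**
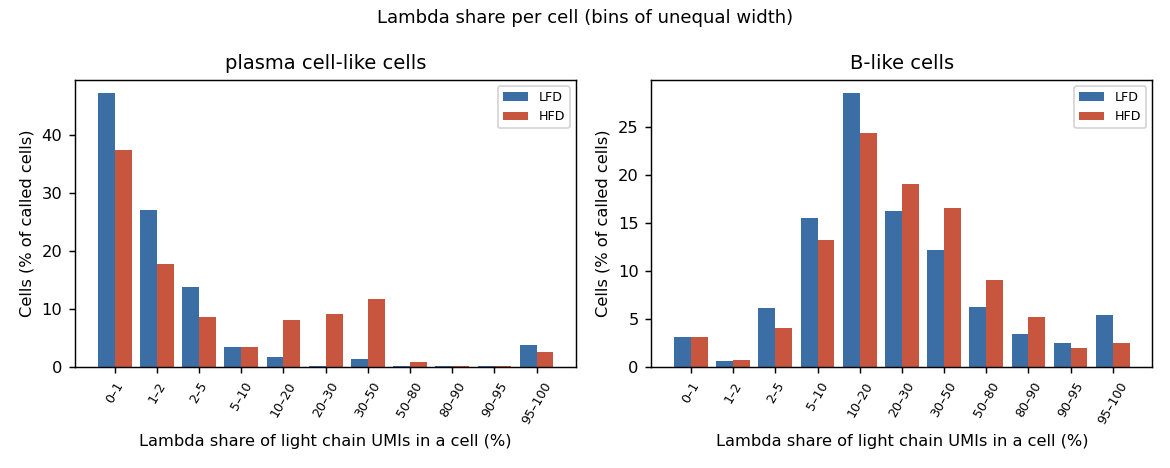
Percent of called cells (y axis) by the lambda share of their light chain UMIs (x axis, bins of unequal width) in plasma cell-like (left) and B-like cells (right), LFD blue and HFD red. HFD plasma cell-like cells had a second group between 10% and 50% lambda, with 155 cells from 30% to 50%, which LFD had with 5 cells.

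Lambda cells held nearly no kappa RNA, which the call itself partly fixes, since Igkc enters the lambda share. Their median Igkc count was 1 UMI in LFD and 6 in HFD, against 2586 and 3153 in kappa cells, and the HFD value is close to the 7.44 UMIs expected from background. Of the 15 LFD lambda cells, Iglc1 was the highest lambda gene in 7, Iglc2 in 7 and Iglc3 in 1. In the 38 HFD lambda cells the numbers were 20, 14 and 4. Lambda cells thus used Iglc1 and Iglc2 at similar counts in each library. Of the HFD cells called both, by contrast, 270 of 287 had Iglc1 highest and only 4 had Iglc2 highest.

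In HFD, RNA of both Igkc and Iglc1 was high in a large group of plasma cell-like cells, and this group, rather than the lambda cells, carried most Iglc1 RNA. At least 100 UMIs of Iglc1 and of Igkc together were found in 421 of 1323 HFD cells (31.8%, interval 29.3% to 34.4%) and in 12 of 339 LFD cells (3.54%, interval 1.84% to 6.10%). Only 19 HFD cells and 8 LFD cells had at least 100 UMIs of Iglc1 without such a level of Igkc. The 421 HFD cells had a median of 1040 Iglc1 UMIs, against 8 in the 866 HFD cells with high Igkc alone. The split at 100 Iglc1 UMIs partly fixes this difference. The Igkc medians of these groups were 3256 against 2975 UMIs. The other lambda genes, which the split did not use, were not higher, with medians of 6 against 9 UMIs for Iglc2 and 2 against 4 for Iglc3. Jchain was at similar levels in both groups, 15705 and 16441 CPM. By CPM, Igkc was at 209619 in the 421 cells and 225808 in those with high Igkc alone, both groups having been chosen for at least 100 Igkc UMIs. By call, Igkc was lower in HFD cells called both than in kappa cells, at 172669 against 237115 CPM (ratio 0.728, interval 0.726 to 0.730). The medians were 2881 and 3153 UMIs. The call itself partly fixes this difference, since Igkc enters the lambda share. Light chain UMIs per UMI of the IgM heavy chain gene Ighm were 3.63 in HFD cells called both and 2.69 in kappa cells.

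The group had more RNA and nearly the same number of markers of other cells. Its median UMI count outside the immunoglobulin genes and Jchain was 9143, against 8504 in the cells with high Igkc alone, and the mean number of stromal markers per cell was 2.71 against 2.57 and of B cell markers 3.39 against 3.42. By call, the median UMI counts outside these genes were 10153 in HFD cells called both and 8151.5 in kappa cells. Cells that also reached the stromal minimum had been set aside as mixed, which limits the comparison of stromal markers. Whether droplets that held a pair of cells contributed was not tested.

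**Figure D4:**
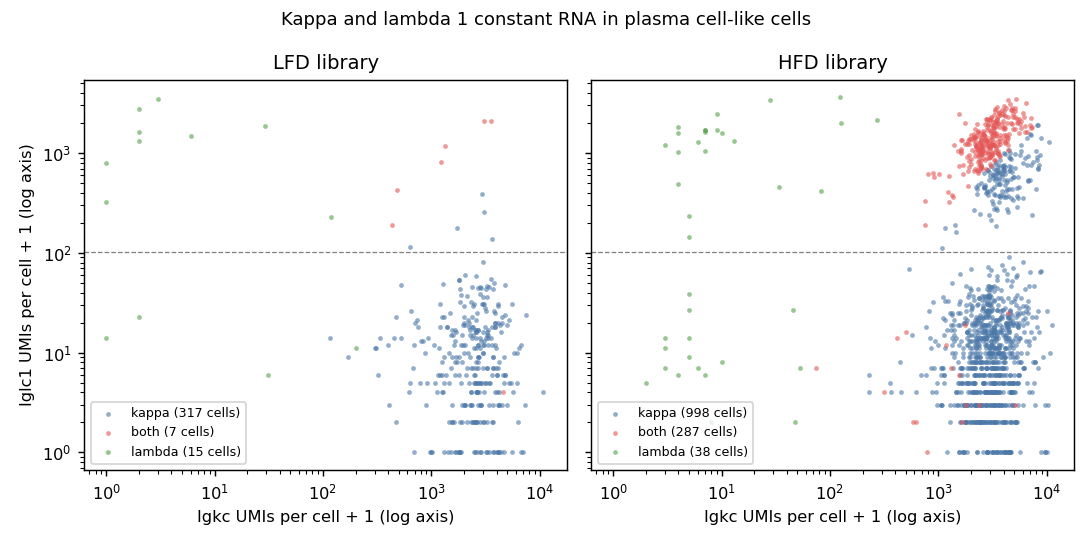
Igkc UMIs + 1 (x axis, log) against Iglc1 UMIs + 1 (y axis, log) in each plasma cell-like cell of the LFD (left) and HFD (right) library, coloured by call, with a dashed line at 100 Iglc1 UMIs. Above the line on the right of each panel are cells with at least 100 UMIs of both genes, 12 of 339 in LFD and 421 of 1323 in HFD.

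The cells with high Iglc1 and Igkc in HFD shared their variable genes, which the grouping did not use. The variable genes followed were those that led the largest number of plasma cell-like cells over both libraries, Igkv14-126 in 1070 of 1528 typed cells and Ighv11-2 in 825 of 1106. Among kappa cells Igkv14-126 led in 47.1% of 297 typed LFD and 71.6% of 944 typed HFD cells. Ighv11-2 led in 58.8% of 177 and 76.3% of 692. Variable gene reads are sparse in 3′ libraries, so a cell was typed by the variable gene with most UMIs in each locus. Igkv14-126 was the leading kappa variable gene in 95.6% of 409 typed cells with high Iglc1 and Igkc, against 66.4% of 810 with high Igkc alone. Ighv11-2 was the leading heavy variable gene in 96.3% of 320 against 70.7% of 584. Ighv11-2 paired with Igkv14-126 is a known receptor of B-1 cells that bind phosphatidylcholine. In the 12 LFD cells with both RNAs the same genes led in 40.0% of 10 and 28.6% of 7 typed cells, a number too low for more than these counts.

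Read the other way, cells with this receptor pair differed between libraries in Iglc1. Among HFD cells typed as Ighv11-2 with Igkv14-126, 296 of 682 (43.4%, interval 39.6% to 47.2%) had at least 100 Iglc1 UMIs, and in LFD 2 of 97 (2.06%, interval 0.251% to 7.25%). Among cells with another pair the numbers were 23 of 196 in HFD (11.7%, interval 7.59% to 17.1%) and 5 of 81 in LFD (6.17%, interval 2.03% to 13.8%). The intervals, which treat cells as independent and cover counting error only, were apart for the pair and overlapped for the other cells. The pair itself was found in 56.1% of 173 typed LFD and 74.6% of 668 typed HFD kappa cells, and in 184 of 205 typed HFD cells called both (89.8%). Cells of 1 pair may be 1 clone, from 1 mouse or several, which these files cannot tell apart.

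The lambda variable gene Iglv1, which rearranges to Iglc1 or Iglc3, did not mark the group. Its level was 1056 CPM in the HFD cells with high Iglc1 and Igkc and 1280 CPM in those with high Igkc alone, with medians of 12 and 10 UMIs per cell. It was the leading lambda variable gene in 99.5% of 944 typed HFD kappa cells and in 90.6% of 32 typed lambda cells, and its level was 1357 CPM in HFD kappa cells and 348 CPM in HFD lambda cells. Iglv1 was thus the leading lambda variable gene in kappa and lambda cells alike, at a higher level in kappa cells.

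Few genes other than immunoglobulin genes differed by 2-fold between HFD cells called both and kappa cells. Of 7307 such genes with at least 100 UMIs, 10 were at least 2-fold higher (0.137%) and 28 at least 2-fold lower (0.383%) in cells with both. The genes named here were chosen after their values were seen. Gm30211, a long noncoding RNA at chr6:70719074-70740554 on the plus strand whose span holds Igkc, was at 5.55 CPM in cells with both and 93.1 CPM in kappa cells, a ratio of 0.0596 (interval 0.0395 to 0.0866). It had a UMI in 4.28% of the 421 cells with high Iglc1 and Igkc and in 39.3% of the 866 with high Igkc alone. Since it overlaps Igkc on the same strand, the assignment of its reads is uncertain. Cox6a2, a subunit of the respiratory chain, was lower with a ratio of 0.156 (interval 0.0900 to 0.255) and Slc7a3, a cationic amino acid transporter, with 0.177 (interval 0.0870 to 0.325). Cped1 was higher at 2.87 (interval 1.92 to 4.30) and Klhl41 at 2.29 (interval 1.83 to 2.86).

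Lambda and kappa plasma cell-like cells were compared in the same way in both libraries. Of 5231 genes other than immunoglobulin genes with at least 50 UMIs in each library, 86 were at least 2-fold higher (1.64%) and 8 at least 2-fold lower (0.153%) in lambda cells of both. With 15 and 38 lambda cells these ratios rest on few UMIs. Highest by mean ratio were Nucb2, Ctsh, Nfs1, Czib and Hvcn1. The proton channel gene Hvcn1 had 6 UMIs (36.4 CPM) in LFD and 35 UMIs (74.3 CPM) in HFD lambda cells against 17.9 and 15.3 CPM in kappa cells, and the protease gene Ctsh 78.9 and 23.3 CPM against 13.9 and 8.98. Lowest were Isg15, Snhg15, Gm30211, Gm49980 and Smc5. The interferon-stimulated gene Isg15 had 1 UMI in the lambda cells of each library against 77.5 and 32.4 CPM in kappa cells, and Gm30211 was at 12.1 and 29.7 CPM against 89.97 and 93.1.

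Between diets, the largest ratio of the 5 genes in plasma cell-like cells was that of Iglc1. Iglc1 was at 5722 CPM in LFD, against 26494 CPM in HFD, a ratio of 4.63 (interval 4.57 to 4.69), which put it at rank 2 from the top of 7856 genes with at least 100 UMIs. Jchain was 1.54-fold higher in HFD (interval 1.52 to 1.55, rank 216). Iglc2 was lower, at 4908 CPM in LFD against 2016 CPM in HFD, a ratio of 0.411 (interval 0.404 to 0.418), rank 17 from the bottom. Igkc had a ratio of 1.1 and Iglc3 of 0.929. By a limit of 1.5-fold, 2 of the 5 were higher in HFD and 1 was lower, against 3.4% higher and 4.77% lower of all genes.

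The Iglc2 ratio rested on few LFD cells, and much of the Iglc1 RNA of HFD lay in the cells called both. In LFD the 15 lambda cells held 17006 of the 21858 Iglc2 UMIs and 13981 of the 25481 Iglc1 UMIs. The HFD cells called both held 395895 of the 529846 Iglc1 UMIs. The median cell differed less, with 9 LFD and 8 HFD UMIs of Iglc2, and with the median of per-cell CPM the ratio was 2.08 for Iglc1 and 0.721 for Iglc2. The Jchain ratio was 1.69 by the median of per-cell CPM, but it was under the 1.5-fold limit within cycling cells, at 1.46, within non-cycling cells, at 1.47, and with a minimum of 9 plasma cell markers, at 1.496. Relative to heavy chain RNA it was smaller, with 15 Jchain UMIs per 100 Ighm UMIs in LFD and 18.8 in HFD. Ighm was the highest heavy chain gene in 333 of 339 LFD and 1317 of 1322 HFD cells in which one led, and Igha, the other heavy chain whose antibody carries J chain, in 5 cells of each library.

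Jchain also differed between light chain calls within each library. In LFD it was at 10630 CPM in kappa and 9417 CPM in lambda cells, a ratio of 0.886 (interval 0.842 to 0.932), and in HFD at 17514 and 11836 CPM, a ratio of 0.676 (interval 0.658 to 0.694). The median lambda cell held 62 Jchain UMIs against 120 in kappa cells in LFD, and 114 against 221 in HFD. Lambda cells were thus lower in both libraries. Of lambda cells 66.7% were cycling in LFD and 57.9% in HFD, against 56.5% and 42.7% of kappa cells. The part of cycling in this difference was not tested. With the median of per-cell CPM the LFD ratio was 0.483. HFD cells called both were at 12359 CPM, a ratio to kappa cells of 0.706 (interval 0.699 to 0.712). Their median of 196 UMIs was close to that of kappa cells, and 70.7% of them were cycling against 42.7% of kappa cells. Per 100 Ighm UMIs, Jchain had 19.2 UMIs in HFD kappa, 17.5 in both and 17.2 in lambda cells, and 15.2, 10.3 and 12.1 in LFD.

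Cycling cells, with at least 10 UMIs of 20 cell cycle genes per 10000, made up 57.2% (LFD) and 49.2% (HFD) of plasma cell-like cells. Jchain and Igkc took a lower share of the UMIs of cycling cells in both libraries. Jchain was at 8140 CPM in cycling and 14814 CPM in non-cycling LFD cells, a ratio of 0.549 (interval 0.540 to 0.560), and at 11890 and 21832 CPM in HFD, a ratio of 0.545 (interval 0.541 to 0.548). The median cycling cell held 99.5 Jchain UMIs against 133 in LFD and 177 against 246.5 in HFD, so that the number of molecules per cell was lower too although cycling cells had more RNA. Igkc had CPM ratios of 0.691 and 0.651, close to those of Ighm, 0.727 and 0.686. In molecules per cell these genes differed less than Jchain, with medians of 2411 against 2604 Igkc UMIs in LFD and 2839 against 3150.5 in HFD, and 908.5 against 903 and 1173 against 1197.5 Ighm UMIs, so that the 1.5-fold difference of Igkc in HFD is one of its share of UMIs. Over 4 bins of rising cell cycle signal, Jchain was at 16478, 12721, 8541 and 8012 CPM in LFD and at 22940, 20604, 12315 and 11782 CPM in HFD.

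**Figure D5:**
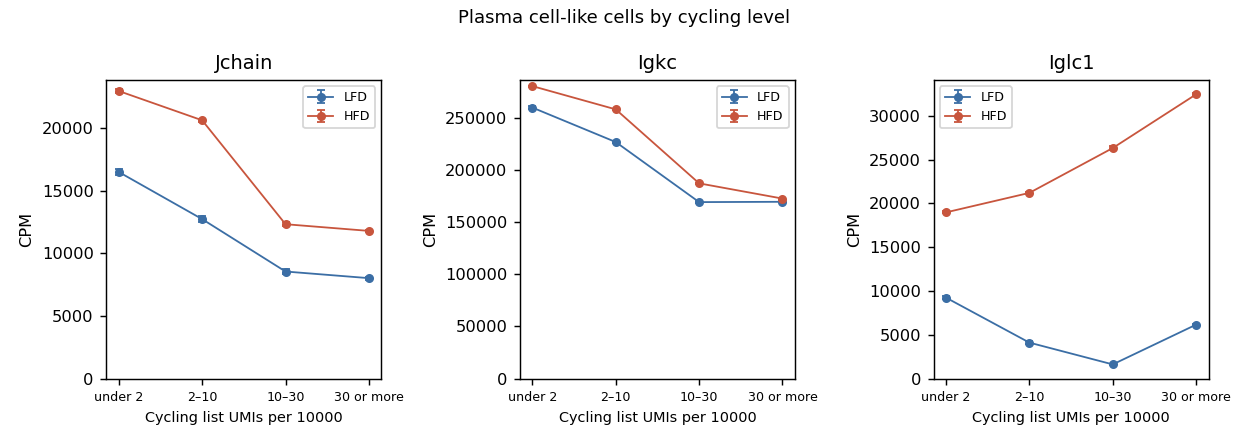
Summed CPM of Jchain, Igkc and Iglc1 (y axes, from 0) in plasma cell-like cells by UMIs of the cell cycle list per 10000 (x axis, 4 bins), LFD blue and HFD red, with exact 95% Poisson intervals. Jchain was lower in each next bin in both libraries, 22940 CPM in the lowest and 11782 CPM in the highest bin in HFD, while Iglc1 in HFD was 18975 CPM in the lowest and 32448 CPM in the highest bin.

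CPM are shares of a cell's UMIs, and cycling cells held more UMIs outside the immunoglobulin genes and Jchain, with medians of 10907 against 6362 in LFD and 11882 against 6787 in HFD. The median gene was higher by 0.37 (log2) in LFD and 0.43 in HFD cycling cells. By the limit of 1.5-fold, 33.6% of 3415 LFD genes were higher and 2.25% lower in cycling cells, and 37.6% and 2.11% of 7379 HFD genes. Jchain was the 1 of the 5 genes past the limit in LFD, rank 19 from the bottom. In HFD Igkc and Jchain (rank 61 from the bottom) were past it as lower and Iglc1 as higher, with a ratio of 1.56 (interval 1.55 to 1.57). Per UMI outside the immunoglobulin genes and Jchain, the Jchain ratios were 0.468 and 0.446 and the HFD Iglc1 ratio was 1.28. Jchain was thus lower in cycling cells on both scales, per Ighm as well, with 13.2 against 17.4 UMIs per 100 Ighm UMIs in LFD and 16.6 against 20.9 in HFD.

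Summed over cells, Iglc1 differed in direction between libraries, with 5062 CPM in cycling and 6964 in non-cycling LFD cells (ratio 0.727) and 31203 and 20031 CPM in HFD. In HFD it went with the share of cells called both, 203 of 651 cycling (31.2%, interval 27.6% to 34.9%) and 84 of 672 non-cycling cells (12.5%, interval 10.1% to 15.2%). The median cell did not show it, with 17 and 18 Iglc1 UMIs, and per cell the direction was the same in both libraries, with ratios of 0.668 (LFD) and 0.703 (HFD) by the median of per-cell CPM and 1.04 and 1.43 by the mean. In LFD 20 cells had at least 100 Iglc1 UMIs. Within HFD cells of one depth range (UMIs outside the immunoglobulin genes and Jchain), the shares of cycling and non-cycling cells were 21.7% of 23 and 7.76% of 116 under 5000 UMIs, 29.3% of 191 and 14.1% of 482 from 5000 to 10000, 30.1% of 266 and 8.93% of 56 from 10000 to 15000, and 36.3% of 171 and 11.1% of 18 above. The share was higher in cycling cells in each range, and the intervals overlapped under 5000 and above 15000 UMIs. By contrast, the share of HFD cells with at least 100 UMIs of both genes that were cycling, 53.9%, was near that of cells with high Igkc alone, 46.7%. Igkc, which enters the lambda share, was lower in cycling cells, and its part in the difference by call was not tested.

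In B-like cells the light chains were lower, lambda took a larger share, and the 3 lambda genes were more even than in plasma cell-like cells. Lambda made up 23.0% of the light chain UMIs in LFD and 27.1% in HFD, against 5.80% and 12.2% in plasma cell-like cells. Of the cells with at least 5 light chain UMIs, 616 of 1117 LFD cells were kappa (55.1%), 128 lambda (11.46%, interval 9.65% to 13.5%) and 373 both (33.4%), and 374 of 802 HFD cells were kappa (46.6%), 78 lambda (9.73%, interval 7.76% to 12.0%) and 350 both (43.6%). The intervals for lambda overlapped. Iglc2 was most often the highest lambda gene in lambda cells of LFD, in 72 of 128, while in HFD Iglc1 and Iglc2 each led in 35 of 78.

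Calls of both in B-like cells were less frequent at high light chain counts in LFD. Their LFD share was 44.6% (interval 38.8% to 50.5%) at 5 to 25 light chain UMIs and 18.8% (interval 10.1% to 30.5%) from 100 UMIs. In HFD the shares were 48.4% and 29.2%, with overlapping intervals and no steady order in the bins between. The part of depth in these calls was not tested. A median B-like kappa cell held 1 Iglc1 and 2 Iglc2 UMIs in LFD beside 36.5 of Igkc. The expected background of Iglc1 was 0.0154 UMIs per LFD and 0.195 per HFD cell, and after its subtraction both calls stood at 34.0% and 44.6%. With limits of 10% and 90% they were 65.1% and 73.4%, and with a single limit of 50% lambda cells were 17.7% and 18.8%.

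Between diets, B-like cells differed most in Jchain. It was at 152 CPM in LFD, against 351 CPM in HFD, a ratio of 2.30 (interval 2.11 to 2.52) at rank 36 of 6954 genes. Iglc1 had a ratio of 1.37 (864 and 1180 CPM), Iglc2 of 1.04, Igkc of 0.878 and Iglc3 of 0.788. By 1.5-fold, 1 of the 5 was higher and none lower, against 6.92% and 3.55% of all genes. Jchain was also higher in HFD stromal-like cells, by 2.84-fold (interval 2.66 to 3.03). With the stromal level subtracted the B-like ratio was 2.24. Under the stricter cell filter, which left 116 LFD and 19 HFD B-like cells, the ratios were 8.31 for Jchain, 4.66 for Iglc1, 2.56 for Igkc, 2.54 for Iglc2 and 1.22 for Iglc3, so that Igkc and Iglc3 turned direction.

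Few B-like cells carried much of the Jchain RNA. The 10 LFD and 11 HFD B-like cells with over 5% light chain UMIs held 38.7% and 36.0% of it, and without them the level was 94.9 and 229 CPM. A Jchain UMI was found in 13.4% and 38.6% of B-like cells (LFD and HFD), in 13.7% and 50.1% of the deeper stromal-like cells, with median depths of 12546 and 16654 UMIs against 4068 and 4206, and in 10.1% and 22.6% of T/ILC-like cells. With every cell thinned to 2000 UMIs (34 LFD and 21 HFD B-like, 36 and 55 stromal-like and 44 and 45 T/ILC-like cells were shallower and left out) these shares were 8.82% (interval 7.20% to 10.7%) and 23.2% (interval 20.3% to 26.4%). Stromal-like cells at that depth had 2.29% and 8.84%, and T/ILC-like cells 6.71% (interval 3.396% to 11.7%) and 14.7% (interval 9.43% to 21.4%). Macrophage-like cells had 4.37% (interval 2.69% to 6.66%) and 12.5% (interval 9.61% to 15.9%), and endothelial-like cells 2.90% (interval 1.55% to 4.91%) and 16.4% (interval 13.2% to 19.98%). At equal depth the share of B-like cells was thus above that of stromal-like, macrophage-like and endothelial-like cells with intervals apart, while its interval overlapped those of T/ILC-like cells and of the 76 LFD and 78 HFD dendritic cell-like cells (2.63% and 14.1%) in both libraries.

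Cycling B-like cells, 23.6% of LFD and 15.2% of HFD, had no steady difference in Jchain. It was 1.38-fold higher (interval 1.20 to 1.60) in LFD and 1.34-fold higher (interval 1.20 to 1.503) in HFD cycling cells, on 346 and 477 UMIs in them. The direction turned under the stricter cell filter, with ratios of 0.269 and 0.368, and in HFD with cycling defined by a UMI of Mki67 or Top2a, at 0.901. Igkc had ratios of 1.05 and 0.893 and Iglc1 of 1.07 and 0.988. Iglc2 and Iglc3 differed between libraries, with 0.628 and 1.58 in LFD and 1.44 and 0.999 in HFD. By 1.5-fold, 1 of the 5 was higher (Iglc3) and 1 lower (Iglc2) in LFD, against 13.9% and 4.87% of 5200 genes, and none in HFD, against 17.7% and 10.1% of 4550 genes. The LFD ratios of Iglc2 and Iglc3 turned to 1.37 and 0.795 under a stricter cell filter, and single cells reached 237 and 482 UMIs of these genes.

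Genes that assemble and move immunoglobulin passed the 1.5-fold limit between diets about as often as all genes did in plasma cell-like cells. Of the 20 listed genes (chaperones, disulphide enzymes, cargo and immunoglobulin receptors) 17 could be measured, none was 1.5-fold higher in HFD and 1 was lower, the IgM receptor gene Fcmr at 0.581 (interval 0.449 to 0.756), against 3.4% higher and 4.77% lower of all genes. The median log2 ratio was 0.05, against -0.09 for all genes. Mzb1, whose product helps assemble IgM, was at 4266 and 4263 CPM, and the chaperone gene Hspa5 at 2071 and 1479 CPM (ratio 0.714). The disulphide isomerase gene Pdia4 had a ratio of 1.38, Ero1lb of 1.39 and Ero1l of 0.722. In cycling against non-cycling plasma cell-like cells 0 of 16 LFD and 0 of 17 HFD genes were higher and 1 was lower in each, the disulphide isomerase gene Txndc5 at 0.654 and 0.634. Over all genes 33.6% and 37.6% were higher and 2.25% and 2.11% lower. Mzb1 and Txndc5 were also among the class markers.

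In cycling B-like cells several of these genes were higher in both libraries. In LFD 6 of 14 measured genes were higher and none lower, and in HFD 6 were higher and 2 lower. Over all genes these shares were 13.9% higher and 4.87% lower in LFD, and 17.7% and 10.1% in HFD, so that the 2 lower genes are near the background. Sdf2l1, a cofactor of chaperones in the endoplasmic reticulum, had ratios of 2.41 and 2.67, the protein disulphide isomerase gene Pdia6 1.76 and 2.41, Hsp90b1 1.89 and 2.17, and Hspa5 1.54 and 1.76. Lower in HFD were Fcmr at 0.591 and Ero1lb, an oxidase that recharges disulphide isomerases, at 0.629. Of 6 genes of surrogate light chain and recombination, only Vpreb3 could be measured, in B-like cells, where it was 2.21-fold and 1.95-fold higher in cycling cells. Rag1 and Rag2, the recombinase genes, had no UMI in either class, which by a limit of 3 counts allows 0.575 CPM in LFD and 0.747 CPM in HFD B-like cells.

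Across 8 cell classes in 2 libraries (16 points, which share libraries and background), the genes other than immunoglobulin genes most like Jchain in log2 level were Bhlha15, with a Pearson correlation of 0.943, Mtdh at 0.941, 4933404K13Rik at 0.934, Mzb1 at 0.931 and Mef2b at 0.930, of 14419 genes. Most like the summed light chains were Mzb1 at 0.976, Mef2b at 0.957, Gm34215 at 0.956, Syvn1 at 0.955 and Tmc3 at 0.947. These values are a description of the classes. Bhlha15, a transcription factor of secretory cells, had 34.6 CPM (LFD) and 35.6 CPM (HFD) in plasma cell-like cells, and 0.575 and 2.24 CPM in B-like cells.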

How the data were processed

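Single cells were profiled with the 3′ chemistry of 10x Genomics in 2 libraries, 1 per diet. The deposited files hold raw UMI counts per gene and called cell, which the authors made with Cell Ranger 4.0.0 per the labels. The submitters' processing notes also name STAR, bcl2fastq 2.17.1.14, Seurat 4.1.0 and mm10. Cell Ranger counts a read only where it belongs to 1 gene. The library totals were 114311020 (LFD) and 119498750 (HFD) UMIs. Empty droplets were not analysed here, so background was taken from other cell types.

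Cells of 500 to 40000 UMIs and under 12.5% mitochondrial UMIs were kept; the study's minimum of 100 genes was an alternative. Classes came from counts of detected markers, and the minimum for each class was settled after the marker counts had been seen, without the 5 genes. Cells that reached the minimum of more than 1 class (654 LFD, 514 HFD) were set aside as mixed, except that plasma cell-like took precedence over B-like and that related classes (B or macrophage with dendritic, endothelial with mural) went to the one with more of its markers; no doublet caller was run. Counts were summed per class and given as CPM with exact Poisson intervals, ratios with exact conditional binomial intervals and shares with Clopper-Pearson intervals. With 1 library per diet there was no test. A ratio past 1.5-fold (100 UMIs or more in all, 1 count added for log2 values) counted as higher or lower. The ratio step was checked on simulated counts. Named genes were the 5 genes and the 5 most like Jchain and the summed light chains across classes. Up to 5 per direction that were 2-fold apart between lambda and kappa cells in both libraries were also named. So were 2 gene lists (Ero1a and Ero1b as Ero1l and Ero1lb in the files). Genes that set HFD cells called both apart from kappa cells were added after their values were seen. The counts of a further list, heavy chain constant genes, are in the closing section. The genes and lists were chosen with earlier results of these data known. Alternatives covered cell filters, class minima, call limits, scaling, background and the definition of cycling. Sequences and positions are from GENCODE M21. Tools were Python 3.11.15, NumPy 2.4.6, SciPy 1.17.1, pandas 2.3.3 and Matplotlib 3.10.9.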

Additional observations from a re-analysis of the deposited data

Results flagged for a closer look

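With 1 library per diet none of the following differences was tested. Igkc went opposite ways between diets in the antibody-making classes, with HFD over LFD ratios of 1.1 in plasma cell-like and 0.878 in B-like cells. Under the stricter cell filter both were above 1, with 2.56 in the 116 LFD and 19 HFD B-like cells left. Its ratio of cycling over non-cycling B-like cells was 1.05 in LFD and 0.893 in HFD, and 0.795 and 0.582 without cells over 5% light chain UMIs. Iglc1 in plasma cell-like cells had cycling over non-cycling ratios of 0.727 in LFD and 1.56 in HFD, and 0.668 and 0.703 by the median of per-cell CPM. Iglc2 in B-like cells had ratios of 0.628 in LFD and 1.44 in HFD, and 0.666 and 0.997 without those cells over 5%.

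Cells set aside because they held markers of more than 1 class carried light chain RNA above the stromal-like level, with 30507 (LFD) and 65968 (HFD) CPM, against 238 and 600 CPM in stromal-like cells. The median mixed cell held 6 and 28.5 light chain UMIs, with medians of per-cell CPM of 437 and 1965, so that a minority of these cells carried most of the sum. Of the mixed cells 129 in LFD and 202 in HFD reached the plasma cell-like minimum, with median depths of 22629 and 25747 UMIs.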

How the results depend on the processing

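Of 437 values recomputed under alternatives, 304 stayed, 129 moved and 4 reversed. Of 79 recomputed values of member ratios that were past 1.5-fold in the main fit, 75 stayed on their side of 1. Over all 237 recomputed member ratios, 197 did. Under these alternatives, plasma cell-like ratios of HFD to LFD ranged from 2.08 to 5.46 for Iglc1, 0.410 to 0.721 for Iglc2 and 1.496 to 1.75 for Jchain. A split by cycling was not among them. Within cycling and non-cycling cells the ratios were 6.16 and 2.88 for Iglc1, 0.459 and 0.342 for Iglc2, and 1.46 and 1.47 for Jchain. Requiring 100 genes per cell removed no plasma cell-like or B-like cell, so that this setting could not move their values.

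Cells called both in HFD plasma cell-like cells were 30.0% with limits of 10% and 90% (LFD 4.13%) and 17.0% at up to 10000 UMIs outside the immunoglobulin genes. In B-like cells those limits gave 65.1% (LFD) and 73.4% (HFD) both and 7.97% and 4.49% lambda, a single limit of 50% gave 17.7% and 18.8% lambda, the stricter cell filter 21.7% both in LFD and the higher light chain minimum 29.4%.

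Reversals of cycling ratios were HFD plasma cell-like Iglc1 at 0.703 (per-cell median) and, in LFD B-like cells, Iglc2 at 1.37 and Iglc3 at 0.795 under the stricter filter and Iglc3 at 0.868 by the per-cell median. Ratios that were not past 1.5-fold could also turn, as Jchain did in cycling B-like cells. The stricter filter (from 1000 UMIs, under 5% mitochondrial) left 116 LFD and 19 HFD B-like cells, whose median mitochondrial share was 7.70% and 8.36% before it.

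Counts of members past 1.5-fold changed as follows. The share of all genes past the limit was not computed under these settings, so the counts show only how the member values move. Counting per UMI outside immunoglobulin genes and Jchain shifts every ratio of a comparison by the same factor. Between diets in plasma cell-like cells 0 were lower by the per-cell median and 1 higher with 9 markers, and in B-like cells 4 were higher under the stricter filter and 0 by the per-cell median. In cycling LFD plasma cell-like cells 3 were lower under the stricter filter, with mixed cells or by Mki67 or Top2a (1 then higher), 4 per UMI outside immunoglobulin genes and 2 by the per-cell median. In HFD 1 was lower with mixed cells and 4 by the per-cell median, and 0 were higher per UMI outside immunoglobulin genes or by the per-cell mean or median. In LFD cycling B-like cells 0 were higher under the stricter filter, the per-cell mean or median or Mki67 or Top2a, and 0 lower by the median; in HFD 1 was higher and 3 lower under the stricter filter, 1 higher by the mean, 2 lower by the median and 1 lower without cells over 5% light chain UMIs.

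The Jchain ratio of lambda over kappa cells was 0.956 with mixed cells, 0.791 with 7 markers, 0.753 by the per-cell mean and 0.483 by the median in LFD, and 0.549 per UMI outside immunoglobulin genes, 0.658, 0.752 and 0.595 in HFD. Stromal-like light chains were at 270.0 and 559 CPM under the stricter filter and 539 and 1717 CPM with mixed cells kept, and Jchain at 42.8 CPM in HFD, and 34.7 and 105 CPM with mixed cells. The cause was not tested.

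No paired analysis was possible because each diet had 1 library. Median depths were 4068 and 4206 UMIs in B-like and 1226 and 1017 in neutrophil-like cells, so that low levels are least precise there.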

Other observations

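Heavy chain constant genes, Ighm included, were counted as a further list of 8 genes. In plasma cell-like cells 3 could be measured between diets, and 0 were 1.5-fold higher and 2 lower in HFD, with a median log2 ratio of -2.90, against 3.4% higher and 4.77% lower of all genes. Igha was at 866 CPM in LFD against 116 CPM in HFD, and Ighg2b at 152 against 1.15 CPM, while Igha led in 5 cells of each library and Ighg2b in 1 LFD cell. In B-like cells 4 could be measured, with 0 higher and 1 lower, Ighg3, at 92.3 against 36.9 CPM, against 6.92% higher and 3.55% lower of all genes. Diet and library cannot be told apart.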
